A study of Mus musculus with 15 samples.

Results

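The genes described here encode the machinery that copies DNA and supplies its building blocks, from the origin recognition complex to ribonucleotide reductase. They are 54 genes listed by symbol, chosen as a pathway and not by a threshold on these data. Of them 53 had a probe set assigned to a single gene, all 53 were bright enough to be tested, and they were analysed among 12701 genes tested in the whole series. Chaf1a, a subunit of the chromatin assembly factor that deposits histones behind the fork, was not analysed here.

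RNA came from a dendritic cell line that originated in the skin (epidermis) of newborn A/J mice, and each of 5 groups had 3 arrays. The groups were cells given DNFB (dinitrofluorobenzene, a contact allergen that binds proteins), cells given H2O2 (hydrogen peroxide, an oxidant), cells given DPI (diphenyl iodonium, which blocks NADPH oxidase and other flavoenzymes), cells given DPI together with DNFB, and non-treated cells. All groups shared the line and its A/J background, and no allele or transgene is named. Doses and exposure times are not given, the series description speaks of vehicle where the sample titles say non-treated, and whether replicate arrays stand for separate cultures is not stated, so that p-values measure the spread between arrays, which may be technical.

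DNA replication starts when the origin recognition complex, Cdc6 and Cdt1 load the Mcm2-7 helicase onto DNA. The kinase Cdc7 with its partner Dbf4, Cdc45 and the GINS complex then switch the helicase on, and primase and DNA polymerases copy the strands with the sliding clamp PCNA and its loader, replication factor C. Many of these genes are transcribed as cells pass from G1 into S phase, when E2F factors bind sites in their promoters. Dendritic cells in tissue divide little, whereas cell lines divide in culture, and these transcripts are more abundant in dividing cells. In RNA from whole cultures, fewer cells in S phase and less of a transcript in each dividing cell cannot be told apart.

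Because many members differed in the same direction between groups, the sequence around their start sites was examined. RefSeq promoters of mouse build GRCm38.p6, which cover 250 bases before the annotated start and the next 50, were matched by symbol for 47 of the members (Mcm4, Gins1, Gins2, Gins4, Pole, Prim2 and Rfc2 are named only), and the genome is that of C57BL/6J while the cells are A/J. 4 promoters are shown, 3 with E2F spellings in different places and that of Rrm2, the member with the largest fall in DNFB cells. Capitals mark the E2F spellings TTTCCCGC, TTTGCCGC, TTTCGCGC or TTTGGCGC, read on either strand with overlapping matches counted separately, and each sequence runs 5′ to 3′ on the gene's strand.
Mcm6 (helicase subunit), chr1:128359656-128359955, minus strand: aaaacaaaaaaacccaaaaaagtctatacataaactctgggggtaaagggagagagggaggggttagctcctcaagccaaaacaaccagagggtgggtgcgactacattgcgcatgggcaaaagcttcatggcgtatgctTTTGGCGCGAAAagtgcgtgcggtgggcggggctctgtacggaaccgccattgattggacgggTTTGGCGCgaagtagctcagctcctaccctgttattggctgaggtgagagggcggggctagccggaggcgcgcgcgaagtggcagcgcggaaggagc
Cdc6 (helicase loading factor), chr11:98907901-98908200, plus strand: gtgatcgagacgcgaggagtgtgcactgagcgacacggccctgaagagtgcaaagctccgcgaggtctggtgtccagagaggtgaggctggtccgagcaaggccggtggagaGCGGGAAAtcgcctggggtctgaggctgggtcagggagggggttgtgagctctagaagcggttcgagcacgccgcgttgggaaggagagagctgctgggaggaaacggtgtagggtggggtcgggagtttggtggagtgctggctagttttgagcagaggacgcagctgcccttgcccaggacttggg
Pole2 (DNA polymerase epsilon subunit), chr12:69228141-69228440, minus strand: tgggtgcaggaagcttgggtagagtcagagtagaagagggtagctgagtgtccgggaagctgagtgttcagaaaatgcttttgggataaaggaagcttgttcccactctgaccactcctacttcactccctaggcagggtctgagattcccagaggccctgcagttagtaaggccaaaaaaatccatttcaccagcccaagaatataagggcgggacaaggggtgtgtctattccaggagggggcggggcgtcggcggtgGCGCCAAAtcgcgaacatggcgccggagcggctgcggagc
Rrm2 (ribonucleotide reductase subunit), chr12:24708004-24708303, plus strand: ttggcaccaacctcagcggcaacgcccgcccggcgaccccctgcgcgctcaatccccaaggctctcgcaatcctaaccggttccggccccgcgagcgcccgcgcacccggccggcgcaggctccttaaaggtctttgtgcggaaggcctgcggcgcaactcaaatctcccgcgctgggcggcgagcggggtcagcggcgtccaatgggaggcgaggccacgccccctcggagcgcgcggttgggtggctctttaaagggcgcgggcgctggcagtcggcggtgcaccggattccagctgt

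The Mcm6 window held 3 matches, which begin at positions -110, -106 and -47 (the first transcribed base is 1), and the first pair overlap. Cdc6 had 1 match at -138 and Pole2 had 1 at 11, just inside the transcribed part. The Rrm2 window held none of the 4 spellings, which says only that these letters are not in this stretch. Some genes have several promoters, and a gene was counted where any of its promoters held a match. Of the matched members, 18 of 47 genes (38.3%) had at least 1 E2F spelling, as had 704 of all 27025 genes with a RefSeq promoter of the same length (2.60%). The box CCAAT, read on both strands, was found for 28 of 47 members (59.6%) and for 41.1% of all genes, while TTTGAA, the cell cycle homology region of genes used in G2 and mitosis, was found for 8 of 47 (17.0%) and for 20.2%. These are counts of letters, not sites shown to be bound.

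The arrays of a group correlated with r of 0.933 to 0.967 over the 27022 probe sets above the signal filter (a description, since probe sets are no replicates), and the number of arrays limits the precision. Of 20 markers of dendritic cells and leukocytes 19 were above the signal filter and Ccr7 was below it. Their summed signal lay between 101963 and 114740 on the DNFB arrays, 116365 and 131251 on the H2O2 arrays, 105150 and 130104 on the DPI arrays and 128043 and 135378 on the DPI + DNFB arrays, against 110182 to 125511 on the non-treated arrays. Such a sum follows its brightest genes, and the 19 single markers moved both ways. Against non-treated cells their log2 changes ran from -1.26 to 2.85 with DNFB and from -1.44 to 2.40 with H2O2. They ran from -1.81 to 0.97 with DPI and from -1.46 to 0.85 with DPI + DNFB. The keratinocyte genes Krt14, Krt1 and Krt10 were below the filter and 3 of the 6 measured keratinocyte markers were above it, as were 1 of 6 fibroblast, 1 of 4 T cell, 1 of 4 mast cell and 1 of 4 melanocyte markers. The one mast cell marker above it was Kit, also a progenitor receptor, and the summed mast cell list was 1069 to 1745 on the DNFB arrays, 808 to 1053 on the H2O2 arrays, 800.1 to 986 on the DPI arrays and 608.5 to 624.3 on the DPI + DNFB arrays, against 1745 to 1962 on the non-treated arrays. The summed keratinocyte list was 513 to 639 with DNFB, 461 to 554 with H2O2, 375 to 565 with DPI and 397 to 851 with DPI + DNFB, against 263 to 513 without treatment. The T cell list was 99.5 to 172 with DNFB, 134 to 260.3 with H2O2, 70.7 to 184 with DPI and 209 to 363 with DPI + DNFB, against 92.0 to 175.0 without treatment. The melanocyte list was 97.4 to 136 with DNFB, 119 to 180.1 with H2O2, 166 to 499.9 with DPI and 282 to 621 with DPI + DNFB, against 122 to 239.6 without treatment. The fibroblast list was 266 to 521 with DNFB, 351 to 467 with H2O2, 359 to 404 with DPI and 340.4 to 655 with DPI + DNFB, against 381 to 422 without treatment. The part of these markers in the results was not tested. The ratio of 3′ to 5′ signal of beta-actin, which rises with degraded or incompletely copied RNA, was 1.95 ± 0.405 in DPI + DNFB cells and 1.25 ± 0.003 in non-treated cells (SD, n = 3 each), and 1.53 was the highest ratio on the other 12 arrays. The same ratio for Gapdh was 1.10 ± 0.160 in DPI + DNFB cells and 0.85 ± 0.025 in non-treated cells (SD, n = 3 each).

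Most of the replication machinery was lower in DNFB cells and in H2O2 cells. Of the 53 members, 38 fell in DNFB cells, none rose and 15 did not pass the test, where 13.9% of all genes tested fell and 10.5% rose. The median member changed by -0.77 on the log2 scale against -0.06 for all genes, and single members ranged from -2.18 to 0.10. H2O2 gave 40 falls and no rise, with 13 members not passing, a median of -0.72 and a range of -1.89 to 0.22, where 17.4% of all genes fell and 10.9% rose. The calls are an adjusted p below 0.05 (limma, all arrays fitted together, Benjamini-Hochberg over all genes tested), and falls of at least 2-fold were seen for 12 members with DNFB and 9 with H2O2. At an unadjusted p below 0.05, limma still gave 0 members higher with DNFB and 0 with H2O2. The 3 non-treated arrays serve both comparisons, so their likeness is not independent evidence. In the values as deposited, where 6 arrays are scaled to 250 and 9 to 500, 5 and 1 members passed for DNFB and H2O2. Over all genes 142 fell and 68 rose with DNFB in those values, and 74 fell and 102 rose with H2O2. Among the 9 arrays scaled to 500 alone, 24 members fell with DNFB and 31 with H2O2, but only 1 DNFB array is among them, so the other groups supply its spread.

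**Figure D1:**
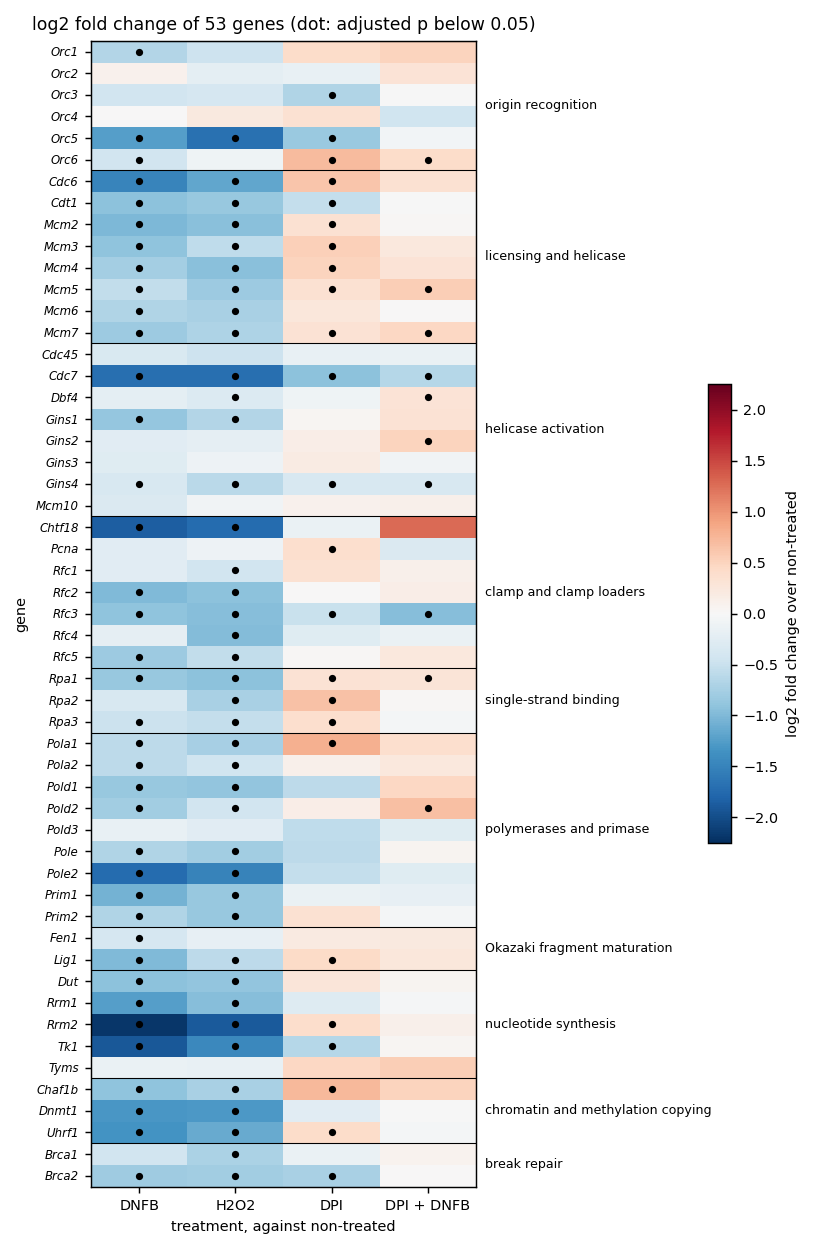
Heat map of the log2 fold change over non-treated cells for the 53 measured genes, in rows grouped by role, with a column each for DNFB, H2O2, DPI and DPI + DNFB cells (3 arrays a group) and a dot where the adjusted p was below 0.05. The DNFB and H2O2 columns are mostly negative with 38 and 40 dots, and the columns with DPI hold values of both signs with 24 and 10 dots.

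The shift was present on every array of both groups. Relative to the mean of the non-treated arrays, the median of the 53 members was -0.75, -0.57 and -0.77 on the DNFB arrays and -0.72, -0.72 and -0.69 on the H2O2 arrays. It was 0.14, 0.07 and 0.19 on the DPI arrays, 0.12, 0.06 and 0.19 on the DPI + DNFB arrays, and 0.03, -0.12 and 0.11 on the non-treated arrays. The DNFB and H2O2 arrays lay below every other array, and the DPI, DPI + DNFB and non-treated arrays overlapped.

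**Figure D2:**
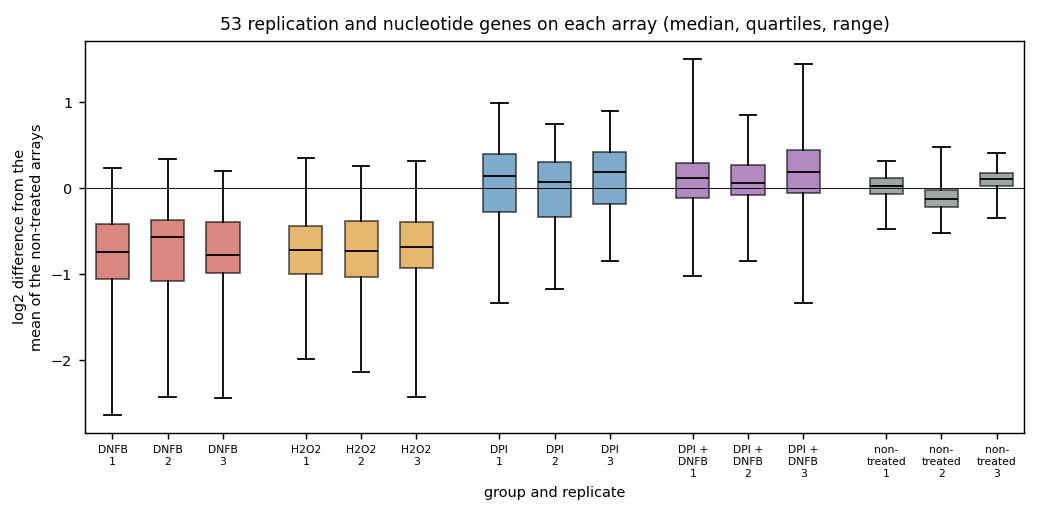
Box for each of the 15 arrays of the log2 difference of the 53 members from the mean of the non-treated arrays, with the median, quartiles and range, by group and replicate. The medians of the 6 DNFB and H2O2 arrays lie between -0.77 and -0.57, below those of the other 9 arrays, which lie between -0.12 and 0.19.

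Every measured licensing factor and subunit of the Mcm2-7 helicase fell, 8 of 8 with DNFB and 8 of 8 with H2O2. Cdc6, which loads the helicase at origins, had signals (arbitrary units, each array scaled to a trimmed mean of 500) of 243, 272 and 237 on the DNFB arrays, 214, 347 and 410.4 on the H2O2 arrays, 1102, 1128 and 1151 on the DPI arrays and 786, 954 and 1043 on the DPI + DNFB arrays, against 748, 612 and 827 on the non-treated arrays. All 6 DNFB and H2O2 values lay below the lowest non-treated value. Cdc6 fell 2.79-fold with DNFB (log2 -1.48 ± 0.194 SE, adjusted p = 9.84e-06, n = 3 arrays a group in this and all later tests) and 2.25-fold with H2O2 (log2 -1.17 ± 0.194 SE, adjusted p = 0.000121).

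Mcm5, a subunit of the helicase ring, had signals of 4836, 5290.1 and 5805 on the DNFB arrays, 3928, 4464 and 4789 on the H2O2 arrays, 9355, 10526 and 9645 on the DPI arrays and 11445, 10004 and 12873 on the DPI + DNFB arrays, against 7413, 7474 and 8379 on the non-treated arrays. The DNFB and H2O2 arrays were again below all others, and the DPI and DPI + DNFB arrays were above the non-treated ones. Mcm5 fell 1.46-fold with DNFB (log2 -0.55 ± 0.113 SE, adjusted p = 0.00107) and 1.77-fold with H2O2 (log2 -0.82 ± 0.113 SE, adjusted p = 1.58e-05). Its change with DNFB was the smallest of this role, and that of Cdc6 the largest. The other ring subunits ranged in log2 change from -1.01 for Mcm2 to -0.67 for Mcm6 with DNFB and from -0.94 for Mcm2 and Mcm4 to -0.56 for Mcm3 with H2O2. Cdt1, the partner of Cdc6 in loading, had signals of 2047, 2388 and 2356 with DNFB and 2293, 2393 and 2359 with H2O2, against 4267, 3943 and 4642 without treatment. The groups did not overlap, and Cdt1 fell with DNFB (log2 -0.92 ± 0.11 SE, adjusted p = 3.58e-06) and with H2O2 (log2 -0.86 ± 0.11 SE, adjusted p = 7.08e-06).

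**Figure D3:**
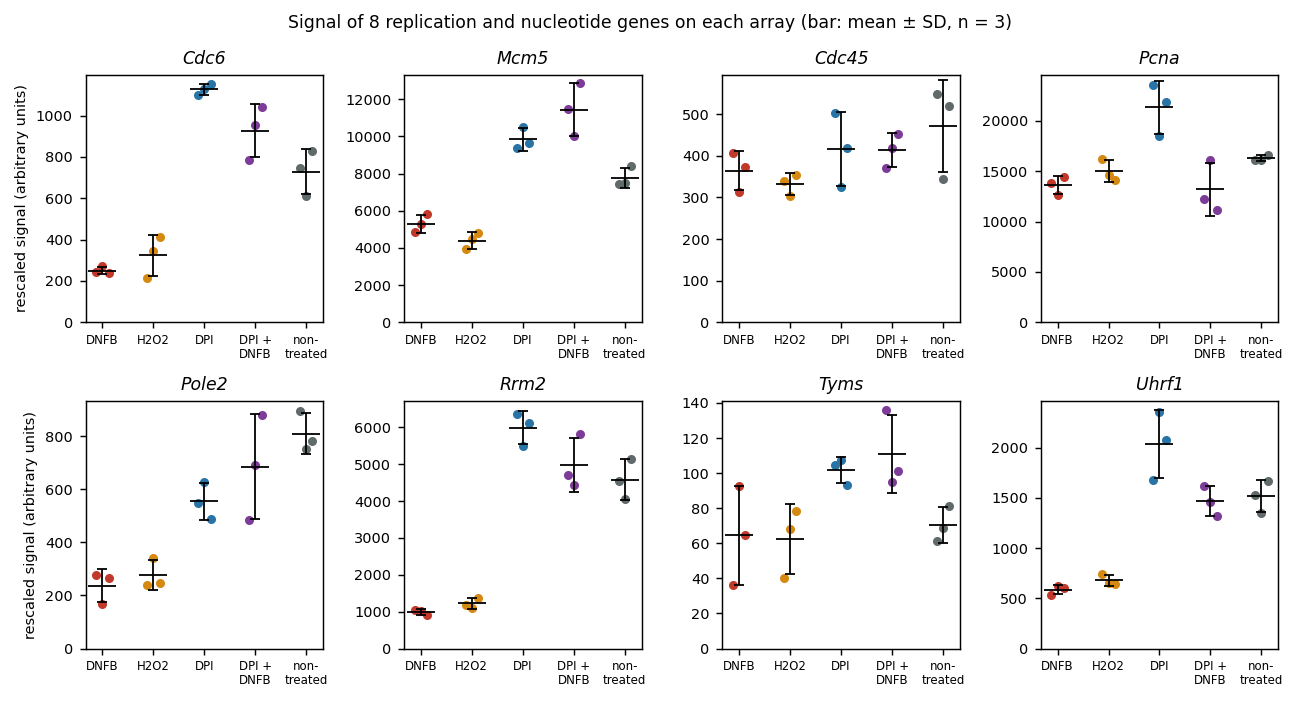
Rescaled signal (arbitrary units, linear axes from 0) of Cdc6, Mcm5, Cdc45, Pcna, Pole2, Rrm2, Tyms and Uhrf1 on each array, by group, with 1 point per array and a bar for the mean with its SD (n = 3). Cdc6, Mcm5, Pole2, Rrm2 and Uhrf1 are lower on the DNFB and H2O2 arrays than on the non-treated arrays without overlap, whereas the Cdc45 and Tyms arrays overlap.

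The origin recognition complex, which marks the places where replication can begin, did not move as a unit. Of its 6 subunits, 3 fell with DNFB (Orc1, Orc5 and Orc6) and 1 with H2O2 (Orc5). The DNFB call of Orc6, whose DNFB arrays overlapped the non-treated ones, held in 18 of 30 alternatives, and that of Orc1 in 23. Orc5 had signals of 337, 395 and 351 on the DNFB arrays, 208, 308 and 277 on the H2O2 arrays, 470.3, 491 and 477 on the DPI arrays and 946, 721 and 863 on the DPI + DNFB arrays, against 1084, 663 and 919 on the non-treated arrays. Its DNFB and H2O2 values were below all non-treated values, and it fell 2.36-fold with DNFB (log2 -1.24 ± 0.187 SE, adjusted p = 4.82e-05) and 3.21-fold with H2O2 (log2 -1.68 ± 0.187 SE, adjusted p = 1.35e-06). Orc2 and Orc4 had changes near 0 with DNFB (0.10 ± 0.125, adjusted p = 0.629 and 0.01 ± 0.203, adjusted p = 0.988) and did not pass with H2O2 either. Orc1 passed with DNFB (log2 -0.65 ± 0.194 SE, adjusted p = 0.0177) and not with H2O2 (log2 -0.46 ± 0.194 SE, adjusted p = 0.0831). The difference of DNFB and H2O2 for Orc1 was -0.19 with an adjusted p of 0.601.

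Factors that activate the loaded helicase were also uneven, with 3 of 8 lower with DNFB and 4 of 8 with H2O2. Cdc7, the kinase that triggers origin firing, had signals of 191, 182 and 185 on the DNFB arrays, 254, 133 and 187 on the H2O2 arrays, 287, 326 and 375 on the DPI arrays and 443, 347 and 417 on the DPI + DNFB arrays, against 640.1, 583 and 686 on the non-treated arrays. All 4 treatments lay below the non-treated arrays for this gene. It fell 3.23-fold with DNFB (log2 -1.69 ± 0.213 SE, adjusted p = 6.13e-06) and 3.25-fold with H2O2 (log2 -1.70 ± 0.213 SE, adjusted p = 5.73e-06). Dbf4, the subunit that activates Cdc7, changed by -0.22 ± 0.11, adjusted p = 0.159 with DNFB, which did not pass, and by -0.30 ± 0.11, adjusted p = 0.0472 with H2O2, a call that was lost when any 1 of 11 arrays was left out. Gins1 and Gins4 of the GINS complex fell in both groups (-0.87 and -0.36 with DNFB, -0.67 and -0.60 with H2O2).

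Cdc45, which rides with the helicase at the fork, did not pass in any comparison. Its signals were 407, 313 and 373 on the DNFB arrays, 340.2, 303 and 353 on the H2O2 arrays, 503, 325 and 419.9 on the DPI arrays and 371, 419 and 453 on the DPI + DNFB arrays, against 549.6, 345 and 519 on the non-treated arrays. The non-treated values ran from 345 to 549.6 and overlapped every treated group, with changes of -0.34 ± 0.203, adjusted p = 0.264 for DNFB and -0.46 ± 0.203, adjusted p = 0.101 for H2O2. Gins3 and Mcm10 did not pass against non-treated cells in any of the 4 treated groups, nor did Orc2, Orc4, Pold3 and Tyms.

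At the clamp and its loaders, 4 of 7 members fell with DNFB and 6 of 7 with H2O2. Pcna itself, the clamp that holds polymerases on DNA, had signals of 13782, 12683 and 14388 on the DNFB arrays, 16217, 14649.6 and 14105 on the H2O2 arrays, 23596, 18481 and 21911 on the DPI arrays and 12251, 16137 and 11178 on the DPI + DNFB arrays, against 16153, 16124 and 16607 on the non-treated arrays. All 3 DNFB values were below the non-treated values, and 1 H2O2 value was above 2 of the non-treated ones. Pcna did not pass with DNFB (-0.26 ± 0.125, adjusted p = 0.147) or H2O2 (-0.12 ± 0.125, adjusted p = 0.523), whereas the loader subunits Rfc2, Rfc3 and Rfc5 fell in both groups (-0.99, -0.91 and -0.81 with DNFB, -0.92, -0.96 and -0.56 with H2O2).

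Rfc4, another loader subunit, separated the 2 agents. It had signals of 1549, 1352 and 1669 with DNFB and 1004, 763 and 905 with H2O2, against 1651, 1508 and 2150.0 without treatment. The H2O2 arrays were below all others shown and the DNFB arrays overlapped the non-treated ones. Rfc4 fell with H2O2 (log2 -0.97 ± 0.175 SE, adjusted p = 0.000282), did not pass with DNFB (log2 -0.20 ± 0.175 SE, adjusted p = 0.465), and was higher with DNFB than with H2O2 (log2 0.77 ± 0.175 SE, adjusted p = 0.00547).

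Chtf18, part of an alternative clamp loader, was dim. Its signals were 5.81, 78.1 and 8.78 on the DNFB arrays, 38.0, 31.4 and 8.97 on the H2O2 arrays, 121, 96.2 and 90.7 on the DPI arrays and 352, 218 and 337 on the DPI + DNFB arrays, against 118, 95.7 and 132 on the non-treated arrays. On the DNFB arrays 2 values were under the added constant of 15 and 1 was near 78, so its fold depends on that constant and on single arrays. It fell with DNFB (log2 -1.85 ± 0.515 SE, adjusted p = 0.0114) and H2O2 (log2 -1.73 ± 0.515 SE, adjusted p = 0.0154), but the DNFB call was lost without DNFB replicate 1 or without DNFB replicate 3, and the H2O2 call without H2O2 replicate 3 or non-treated replicate 3.

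Replication protein A, which coats single-stranded DNA at the fork, has 3 subunits, of which 2 fell with DNFB and 3 with H2O2. Rpa1, the largest subunit, had signals of 4219.9, 4333 and 4859 on the DNFB arrays, 3967, 4455 and 4293 on the H2O2 arrays, 10599.6, 9685 and 10223 on the DPI arrays and 10674, 9086 and 9889.7 on the DPI + DNFB arrays, against 8242, 8159 and 7829 on the non-treated arrays. The DNFB and H2O2 arrays were all below the non-treated arrays and the DPI and DPI + DNFB arrays all above them. Rpa1 fell with DNFB (log2 -0.85 ± 0.096 SE, adjusted p = 1.67e-06) and H2O2 (log2 -0.93 ± 0.096 SE, adjusted p = 5.29e-07). Rpa3 fell in both (-0.49 and -0.53), and Rpa2 fell with H2O2 (-0.73 ± 0.148, adjusted p = 0.000933) and did not pass with DNFB (-0.36 ± 0.148, adjusted p = 0.0898).

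Of the 9 genes of polymerases and primase, 8 fell with DNFB and 8 with H2O2, with Pold3 as the one that did not pass in either. Pole2, a subunit of the leading-strand polymerase epsilon, had signals of 278, 167 and 267 on the DNFB arrays, 240.3, 343 and 249 on the H2O2 arrays, 550.5, 627 and 488 on the DPI arrays and 485, 691 and 881 on the DPI + DNFB arrays, against 897, 751 and 783 on the non-treated arrays. The DNFB and H2O2 arrays were below the non-treated arrays without overlap. Pole2 fell 3.33-fold with DNFB (log2 -1.74 ± 0.223 SE, adjusted p = 7.9e-06) and 2.85-fold with H2O2 (log2 -1.51 ± 0.223 SE, adjusted p = 3.67e-05). Prim1, the catalytic primase subunit, fell in both (-1.06 and -0.85), as did Pold1, the catalytic subunit of polymerase delta (-0.85 and -0.88). Pola1, the catalytic subunit of polymerase alpha that extends the primers, fell with DNFB (-0.59 ± 0.209, adjusted p = 0.0452), where 1 of its DNFB arrays overlapped the non-treated ones. That call held in 18 of 30 alternatives and was lost when any 1 of 7 arrays was left out. The H2O2 call of Pola2, another subunit of polymerase alpha, was lost when any 1 of 11 arrays was left out.

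Both genes that finish Okazaki fragments, the short pieces of the lagging strand, fell with DNFB. Lig1, the ligase that seals them, had signals of 689, 597 and 644 with DNFB and 693, 879 and 1017 with H2O2, against 1525, 1104 and 1285 without treatment. Neither treated group overlapped the non-treated arrays, and Lig1 fell with DNFB (log2 -0.99 ± 0.163 SE, adjusted p = 0.000117) and H2O2 (log2 -0.59 ± 0.163 SE, adjusted p = 0.0091). Fen1, the flap nuclease, fell with DNFB (log2 -0.38 ± 0.13 SE, adjusted p = 0.0405) and did not pass with H2O2 (log2 -0.19 ± 0.13 SE, adjusted p = 0.324), and its difference between DNFB and H2O2 did not pass (-0.19 ± 0.13, adjusted p = 0.385). The DNFB call of Fen1 held in 23 of 30 alternatives.

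The largest fall of a single member with each agent, that of Rrm2, was in nucleotide synthesis, where 4 of 5 genes were lower with each agent. Rrm2, the small subunit of ribonucleotide reductase that makes deoxyribonucleotides, had signals of 1044, 1025 and 913 on the DNFB arrays, 1187, 1105 and 1382 on the H2O2 arrays, 6359.6, 5486 and 6125 on the DPI arrays and 4711, 4429 and 5821 on the DPI + DNFB arrays, against 4555, 4046 and 5149 on the non-treated arrays. The highest DNFB or H2O2 value was 1382, and the lowest value of the other 3 groups was 4046. Rrm2 fell 4.54-fold with DNFB (log2 -2.18 ± 0.126 SE, adjusted p = 2.85e-10) and 3.71-fold with H2O2 (log2 -1.89 ± 0.126 SE, adjusted p = 2.12e-09). The large subunit Rrm1 fell by 1.24 with DNFB and dropped by 0.96 with H2O2 on the log2 scale.

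Tk1, thymidine kinase of the salvage pathway, had signals of 272, 162 and 298 on the DNFB arrays, 388, 301 and 312 on the H2O2 arrays, 577, 563 and 645 on the DPI arrays and 872, 985 and 1048 on the DPI + DNFB arrays, against 1006, 791 and 1020.5 on the non-treated arrays. DNFB and H2O2 arrays were lowest, DPI arrays lay between, and the DPI + DNFB arrays overlapped the non-treated ones. Tk1 fell 3.77-fold with DNFB (log2 -1.92 ± 0.195 SE, adjusted p = 4.58e-07) and 2.74-fold with H2O2 (log2 -1.45 ± 0.195 SE, adjusted p = 1.21e-05). Dut, which removes dUTP before it is built into DNA, fell in both (-0.93 and -0.88). Tyms, which makes thymidylate, was read from a dim probe set with signals of 36.5, 92.6 and 64.6 on the DNFB arrays, 40.2, 68.1 and 78.7 on the H2O2 arrays, 105, 107 and 93.3 on the DPI arrays and 136, 94.9 and 101 on the DPI + DNFB arrays, against 61.1, 68.5 and 81.2 on the non-treated arrays. Its groups overlapped for DNFB and for H2O2, and it did not pass (-0.16 ± 0.402, adjusted p = 0.837 and -0.17 ± 0.402, adjusted p = 0.809). The other 3 Tyms probe sets were dimmer still, 2 of them below the filter.

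All 3 measured genes that copy chromatin and DNA methylation fell with both agents. Uhrf1, which brings the methyltransferase to newly copied DNA, had signals of 538, 623 and 602 on the DNFB arrays, 738, 655 and 641 on the H2O2 arrays, 1676, 2351 and 2077 on the DPI arrays and 1623, 1462 and 1324 on the DPI + DNFB arrays, against 1528, 1351 and 1671 on the non-treated arrays. The highest DNFB or H2O2 value was 738, and the lowest value of the other groups was 1324. Uhrf1 fell 2.54-fold with DNFB (log2 -1.34 ± 0.139 SE, adjusted p = 5.81e-07) and 2.21-fold with H2O2 (log2 -1.14 ± 0.139 SE, adjusted p = 3.87e-06). Dnmt1, the maintenance methyltransferase itself, fell in both (-1.32 and -1.30), and so did Chaf1b of the chromatin assembly factor (-0.91 and -0.72).

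Of the break repair genes, Brca2, which acts in homologous recombination, fell with DNFB (log2 -0.79 ± 0.268 SE, adjusted p = 0.0357) and H2O2 (log2 -0.78 ± 0.268 SE, adjusted p = 0.0348). These calls held in 23 of 30 alternatives for DNFB and in 20 of 30 for H2O2. Brca1 fell with H2O2 (log2 -0.71 ± 0.217 SE, adjusted p = 0.0189) and did not pass with DNFB (log2 -0.42 ± 0.217 SE, adjusted p = 0.177).

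Set directly against each other, the allergen and the oxidant differed at 2 of the 53 genes, where 6.02% of all genes were lower in the DNFB group and 8.7% were higher. Rfc4 was higher with DNFB, and Mcm3 was lower with DNFB (log2 -0.33 ± 0.11 SE, adjusted p = 0.0462), with signals of 1718, 1577 and 1902 with DNFB and 2154, 2043 and 2357 with H2O2. The Mcm3 groups did not overlap, but its call was lost when any 1 of 10 arrays was left out, and over the fits that leave out 1 array the count of differing genes ran from 1 to 3. The median difference of the members was -0.06 and single members ranged from -0.46 for Tk1 to 0.77 for Rfc4. A miss of the threshold does not show that the agents act alike: the 95% interval of the log2 difference was -0.56 to -0.03 for Rrm2, -0.71 to 0.10 for Cdc6 and 0.05 to 0.83 for Orc5.

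DPI alone did not lower the machinery as a whole. With the inhibitor 16 members rose, 8 fell and 29 did not pass, where 13.4% of all genes rose and 18.4% fell, and the median member changed by 0.14. The rises included Pola1 (log2 0.80 ± 0.209 SE, adjusted p = 0.00596), Chaf1b (log2 0.73 ± 0.217 SE, adjusted p = 0.0138), Orc6 (log2 0.72 ± 0.151 SE, adjusted p = 0.00104) and all 3 subunits of replication protein A. Of the licensing and helicase genes 6 of 8 rose, among them Cdc6 (0.63), Mcm3 (0.53) and Mcm5 (0.34), while Cdt1 fell (log2 -0.53 ± 0.11 SE, adjusted p = 0.000993).

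The members that fell with DPI were Cdc7 (log2 -0.92 ± 0.213 SE, adjusted p = 0.00234), Orc5 (log2 -0.84 ± 0.187 SE, adjusted p = 0.00175), Brca2 (log2 -0.72 ± 0.268 SE, adjusted p = 0.0447, with overlapping arrays), Orc3 (-0.67), Tk1 (-0.64), Cdt1, Rfc3 (-0.50) and Gins4 (-0.36). Rrm2, Pcna and Uhrf1 rose by smaller amounts (0.39, 0.38 and 0.41). No member changed 2-fold. The count was 15 when non-treated replicate 1, non-treated replicate 2 or DPI replicate 1 was left out, 11 among the arrays scaled to 500, 6 among those scaled to 250 (1 DPI array against 1 non-treated array) and 0 in the values as deposited. Over all genes the deposited values left 87 higher and 127 lower. With each array centred on its median instead, 20 rose and 3 fell. Over all genes 2518 rose and 1637 fell there, against 1698 and 2336 as reported. The median of all genes moved to 0.14, against -0.01 as reported.

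With both compounds present, most members stood above their level in DNFB cells. Against cells given DNFB alone, 41 of 53 members were higher in DPI + DNFB cells and none was lower by the limma test (1 at an unadjusted p below 0.05), where 23.1% of all genes were higher and 21.1% lower. The median member was 0.91 higher on the log2 scale against 0.10 for all genes, and 25 members were at least 2-fold higher. Rrm2 was 4.93-fold higher (log2 2.30 ± 0.126 SE, adjusted p = 9.29e-11), Tk1 3.9-fold (log2 1.96 ± 0.195 SE, adjusted p = 1.43e-07), Cdc6 3.53-fold (log2 1.82 ± 0.194 SE, adjusted p = 3.51e-07) and Pole2 2.76-fold (log2 1.46 ± 0.223 SE, adjusted p = 2.39e-05). Pold2, the second subunit of polymerase delta, had signals of 2147, 1727 and 2342 with both compounds and 748, 611 and 875 with DNFB, which did not overlap (log2 1.46 ± 0.152 SE, adjusted p = 2.5e-07). All 8 licensing and helicase genes, 8 of 9 polymerase and primase genes, all 3 chromatin genes and 4 of 5 nucleotide synthesis genes were higher. Among members that did not pass were Pcna (-0.06), Rfc3 (-0.06), Orc4 (-0.45), Cdc45 (0.18) and Tyms (0.71).

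The beta-actin ratio was 2.07, 1.50 and 2.29 on the DPI + DNFB arrays, and the 1.50 of replicate 2 lay below the 1.53 of DNFB replicate 2. The part of RNA quality in these results was not tested beyond adding the ratio to the fit. The ratio was raised mainly in this group, so here and below such a fit cannot separate it from the treatment. With the ratio as a covariate 28 members were higher than with DNFB alone, and of all genes 1443 were, against 2933 as reported. With the group reduced to replicate 2, the array with the lowest ratio, 34 were higher.

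DNFB was also compared with no DNFB in cells that had DPI. Here 11 members were higher in DPI + DNFB cells than in DPI cells and 6 were lower, where 14.3% of all genes were higher and 13.6% lower, and the median member was 0.09. Pold1 (log2 1.05 ± 0.226 SE, adjusted p = 0.00189), Orc5 (log2 0.79 ± 0.187 SE, adjusted p = 0.00384), Tk1 (log2 0.69 ± 0.195 SE, adjusted p = 0.0123) and Cdt1 (log2 0.52 ± 0.11 SE, adjusted p = 0.00164) were among the higher ones. Pcna, with signals of 12251, 16137 and 11178 in DPI + DNFB cells and 23596, 18481 and 21911 in DPI cells, was lower without overlap (log2 -0.70 ± 0.125 SE, adjusted p = 0.000377), as were Rpa2 (log2 -0.63 ± 0.148 SE, adjusted p = 0.00372), Rpa3 (log2 -0.41 ± 0.11 SE, adjusted p = 0.0087) and Uhrf1 (log2 -0.46 ± 0.139 SE, adjusted p = 0.0185). Rfc3 (-0.46) and Orc4 (-0.78) were lower with overlapping arrays.

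These calls depended on the setting and on single arrays. None of the 17 passed with the beta-actin ratio as a covariate, where Orc4 and Rfc3 also changed sign (0.05 and 0.15), and 2 passed with that group reduced to its replicate 2. Over all genes the covariate left 269 higher and 273 lower, against 1811 and 1730 as reported. The count was 8 without DPI + DNFB replicate 3, 10 without DPI replicate 2 and 11 without DPI replicate 3, and with arrays centred on their medians the split became 4 higher and 13 lower, and that of all genes 1064 higher and 2480 lower.

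Whether DPI changed the effect of DNFB was tested as an interaction, the log2 change with DNFB in cells with DPI minus that in cells without it. The interaction was positive and passed for 31 of 53 members and was negative and passed for 1, where 17.4% of all genes passed as positive and 13.7% as negative, with a median of 0.71 for the members and 0.14 for all genes. It was at least 1 on the log2 scale for 19 members. Tk1 changed by 0.69 with DNFB in DPI cells and by -1.92 without DPI (interaction 2.60 ± 0.275 SE, adjusted p = 9.22e-07). Rrm2 changed by -0.27 and -2.18 in the same order (interaction 1.91 ± 0.178, adjusted p = 2.05e-07), Pole2 by 0.26 and -1.74 (2.001 ± 0.316, adjusted p = 7.56e-05) and Cdc7 by 0.28 and -1.69 (1.97 ± 0.301, adjusted p = 5.41e-05). Orc5 (2.03), Cdc6 (1.19), Uhrf1 (0.89) and Mcm5 (0.76) also passed.

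The largest interaction was that of the dim gene Chtf18 (3.26 ± 0.729, adjusted p = 0.00187), whose call was lost with the beta-actin covariate. By role, 7 of 8 licensing and helicase genes, 6 of 9 polymerase and primase genes and 4 of 5 nucleotide synthesis genes passed as positive, against 3 of 8 helicase activation genes and 1 of 3 subunits of replication protein A. Orc4 was the negative one (-0.79 ± 0.287, adjusted p = 0.0421), and its 3 DPI + DNFB values of 917, 1447 and 614 spread widely. Its call was lost when any 1 of 9 arrays was left out, and the sign turned with the mean of its probe sets (0.05). With the beta-actin ratio as a covariate 23 members passed, all positive, while over all genes 1386 passed as positive, against 2212 as reported. Among the arrays scaled to 500, with 1 DNFB array, there were 19. With arrays centred on their medians 24 members passed as positive and 2 as negative, and over all genes 1465 and 2354.

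**Figure D4:**
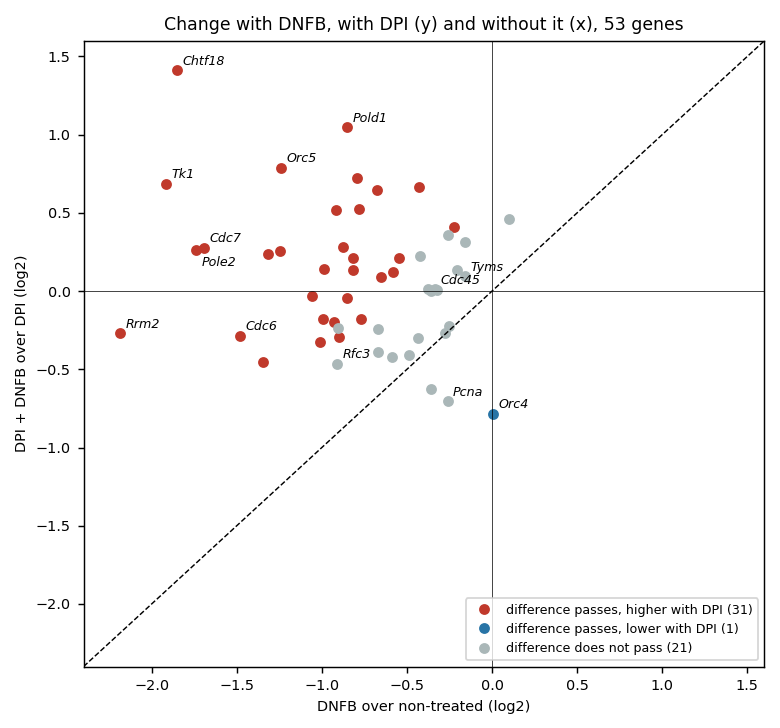
Scatter of the 53 genes with the log2 change of DPI + DNFB over DPI on the vertical axis against that of DNFB over non-treated on the horizontal axis, coloured by whether the interaction passed. Most points lie left of 0 on the horizontal axis and near 0 on the vertical axis, with Tk1 at -1.92 and 0.69, Rrm2 at -2.18 and -0.27, and Orc4 low on the vertical axis at -0.78.

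Compared with non-treated cells, DPI + DNFB cells had 7 members higher and 3 lower, where 15.2% of all genes were higher and 18.6% lower, and the median member was 0.08. The higher ones were Pold2 (log2 0.68 ± 0.152 SE, adjusted p = 0.00176), Mcm5 (log2 0.55 ± 0.113 SE, adjusted p = 0.000776), Mcm7 (log2 0.46 ± 0.0973 SE, adjusted p = 0.00106), Gins2, Orc6, Dbf4 and Rpa1, and the others of these rose by 0.29 to 0.50. For Gins2 and Orc6 the DPI + DNFB arrays overlapped the non-treated ones. Of the 38 members that fell with DNFB, 35 did not pass as lower with both compounds. The 3 that did, Cdc7 (log2 -0.65 ± 0.213 SE, adjusted p = 0.0239), Gins4 (log2 -0.36 ± 0.108 SE, adjusted p = 0.0129) and the clamp loader subunit Rfc3 (log2 -0.96 ± 0.165 SE, adjusted p = 0.000156), had also fallen with DPI and with H2O2.

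Rfc3 had signals of 857, 699 and 809.7 on the DNFB arrays, 815, 764 and 702 on the H2O2 arrays, 1014, 1040.1 and 1092 on the DPI arrays and 729, 1019 and 580.0 on the DPI + DNFB arrays, against 1612, 1286 and 1592 on the non-treated arrays. Every treated array was below every non-treated array, and its level with both compounds did not pass as different from that with DNFB (-0.06 ± 0.165, adjusted p = 0.814). None of the 10 calls against non-treated cells passed with the beta-actin covariate, which over all genes left 417 higher and 512 lower, against 1933 and 2363 as reported, and 1 passed with that group reduced to its replicate 2. The count was 6 without DPI + DNFB replicate 3.

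Several members were read by more than 1 probe set, and these did not always give the same value. For Rrm2 the probe set used ends in x_at, which marks probes that may also bind other sequences, and 2 others were bright enough to be tested. All 3 were lower with DNFB, by -2.18 ± 0.127, adjusted p = 9.49e-10, -2.20 ± 0.133, adjusted p = 1.21e-09 and -2.32 ± 0.261, adjusted p = 3.23e-06, adjusted here over all probe sets. With DNFB in DPI cells they parted, at -0.27 ± 0.127, adjusted p = 0.136, -0.51 ± 0.133, adjusted p = 0.00968 and -1.77 ± 0.261, adjusted p = 0.000116, and the interaction of the last did not pass (0.55 ± 0.37, adjusted p = 0.315). The second bright Mcm5 probe set was lower with DNFB too (-0.49 ± 0.146, adjusted p = 0.0226) and another, dim one was near 0 (0.04 ± 0.484, adjusted p = 0.973). The second Cdc7 probe set did not pass with DNFB (-0.14 ± 0.566, adjusted p = 0.922) or for the interaction (0.11 ± 0.8, adjusted p = 0.945), with a larger SE. In all, 36 members had 53 further probe sets above the filter. Of the 31 further probe sets of members that passed with DNFB, 1 had the opposite sign, as had 3 of 37 for H2O2, 2 of 22 for DPI, 0 of 9 for both compounds, 0 of 1 for DNFB against H2O2, 3 of 11 for DPI + DNFB against DPI, 2 of 35 for DPI + DNFB against DNFB and 1 of 27 for the interaction, and none of these passed itself.

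Genes of the same pathway outside the 54 showed where the change extended. Of 33 other replication factors and fork proteins tested, 13 fell and 2 rose with DNFB, and 15 fell and 1 rose with H2O2. Of all genes 13.9% fell and 10.5% rose with DNFB, and 17.4% fell and 10.9% rose with H2O2. The interaction passed as positive for 13 of the 33 and as negative for 2, where 17.4% and 13.7% of all genes did. Dscc1, which works with Chtf18 in loading the clamp, fell with DNFB (log2 -1.46 ± 0.195 SE, adjusted p = 1.17e-05) and H2O2 (-1.37), the helicase and nuclease Dna2 fell (-1.41 and -2.03), and so did the fork protection factor Tipin (-1.24 and -1.46) and the licensing inhibitor Gmnn (-1.04 and -1.40). The histone chaperone Asf1a and the topoisomerase Top1 rose with DNFB (0.69 and 0.53).

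Of 28 other nucleotide synthesis genes, 12 fell and 2 rose with DNFB, where 13.9% of all genes fell and 10.5% rose. With H2O2 12 of the 28 fell and 1 rose, where 17.4% of all genes fell and 10.9% rose. With DNFB the falls were largest for Dhodh of pyrimidine synthesis (log2 -1.76 ± 0.254 SE, adjusted p = 2.93e-05), Prps2, which makes the ribose donor (-1.26), the folate enzyme Mthfd1 (-1.16) and Pfas of purine synthesis (-1.12). The mitochondrial folate enzyme Mthfd2 rose with DNFB (0.61) and H2O2 (0.90). Deoxycytidine kinase Dck rose with DNFB (log2 0.86 ± 0.11 SE, adjusted p = 7.86e-06) and fell with H2O2 (log2 -0.67 ± 0.11 SE, adjusted p = 0.000121), and the direct difference of DNFB and H2O2 was 1.53 (adjusted p = 6.06e-08).

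Among 18 regulators of S phase entry, 12 fell and 1 rose with DNFB, where 13.9% of all genes fell and 10.5% rose. With H2O2 13 of the 18 fell and 1 rose, where 17.4% of all genes fell and 10.9% rose. The regulator that rose was Cdkn1a, the p53 target that inhibits cyclin-dependent kinases, with DNFB (log2 2.58 ± 0.133 SE, adjusted p = 7.36e-11) and with H2O2 (log2 2.78 ± 0.133 SE, adjusted p = 3.89e-11). With DPI alone its change was 1.28, and its interaction was -2.98 ± 0.189, adjusted p = 1.94e-09. Changes of the 18 ran from -3.25 to 2.58 with DNFB and from -2.20 to 2.78 with H2O2. The gene at -3.25 is not named here. The S phase repressor E2f8 fell (-2.59 and -2.20), as did Fbxo5, an inhibitor of the anaphase-promoting complex (-1.67 and -1.78), and cyclin E1, Ccne1 (-1.56 and -1.45). All 5 measured genes of later cell cycle stages fell with both, with Top2a at -1.65 and -1.12 and Plk1 at -1.52 and -1.53. The interaction was positive for all 5 and passed for 4, where 17.4% of all genes passed as positive.

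The promoter counts can be set beside the calls as a description. An E2F spelling was in 15 of the 32 matched members that fell with DNFB and in 3 of the 14 matched members that did not pass, Chaf1a being left out. Of the members whose promoters are printed above, Rrm2, with none of the spellings in its window, was picked for its fall with DNFB. Its rank among them therefore says nothing about the spellings. Mcm6, with 3 matches, fell by 0.67 on the log2 scale with DNFB. Cdc6 and Pole2, with 1 match each, changed by -1.48 and -1.74. Whether the spellings had a part in the falls was not tested. The CCAAT box was in 18 of 32 and 9 of 14, and the letters TTTGAA in 5 of 32 and 3 of 14.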

How the data were processed

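Total RNA of a mouse dendritic cell line was measured on 15 oligonucleotide arrays, 3 for each of 5 groups taken from the sample titles. The authors deposited 1 value per probe set, an intensity on a linear scale, made with MAS5 in Affymetrix Expression Console, per the submitters' processing notes, which give no versions. The 2% trimmed mean of the deposited intensities was 250 on 6 arrays and 500 on 9, so each array was rescaled to 500 over its non-control probe sets. The signals were then transformed as log2(signal + 15), which understates changes of dim genes. Probe sets with a mean at or above the 40th percentile (log2 of 6.23) were kept, 27022 in all, and the brightest one represented each gene.

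Symbols came from the platform annotation, updated by gene identifier. Of 45037 probe sets besides the array's 64 controls, 34945 had 1 symbol, 932 several and 9160 none, and 34741 matched the gene table. Group means were fitted over all arrays with limma 3.58.1 in R 4.3.3 (eBayes with trend, 10 residual degrees of freedom). A call is an adjusted p below 0.05 after Benjamini-Hochberg adjustment over the 12701 genes of a comparison. Folds are ratios on the log2(signal + 15) scale with the SE of the fit, while levels are rescaled signals with SD. Levels of different probe sets were not compared. The steps were tested on simulated data.

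The members, the gene lists and the tests were chosen with earlier results of these data known. Members were named by a rule (the largest passing changes of each comparison without overlap, 8 fixed genes, the ends of each role, and up to 4 genes of each companion list), and others were added after their values were seen. The alternatives were other scalings, pseudocounts, filters and probe set rules, fewer groups, the scaling target or the replicate number as a block, a beta-actin covariate, and each array left out.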

Additional observations from a re-analysis of the deposited data

Results flagged for a closer look

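The effect of DNFB differed between cells with DPI and cells without it for 32 of the 53 members, by the limma interaction term at an adjusted p below 0.05. Of all genes 17.4% passed this term as positive and 13.7% as negative. The values below are the log2 change with DNFB in DPI cells minus that in cells without DPI. The level with DPI alone enters each value: Tk1, Orc5, Cdc7, Cdt1, Orc3 and Brca2 had fallen with DPI, while others such as Cdc6 and Mcm5 had risen. In nucleotide synthesis the difference was 2.60 for Tk1, 1.91 for Rrm2, 1.50 for Rrm1 and 0.73 for Dut. Among the licensing factors and the helicase it was 1.44 for Cdt1, 1.19 for Cdc6, 0.95 for Mcm7, 0.76 for Mcm5, 0.68 for Mcm2, 0.60 for Mcm3 and 0.59 for Mcm4. The polymerase and primase genes had 2.001 for Pole2, 1.90 for Pold1, 1.32 for Pole, 1.31 for Pold2, 1.02 for Prim1 and 0.71 for Pola2. The clamp loaders had 3.26 for Chtf18, 1.13 for Rfc2 and 1.03 for Rfc5, the first of these from a dim probe set whose call was lost with the beta-actin ratio as a covariate. The helicase activation genes had 1.97 for Cdc7, 1.16 for Gins1 and 0.63 for Dbf4. For Cdc7 and for Rrm2, a further probe set did not pass this term, that of Cdc7 with a larger SE. In the origin recognition complex the difference was 2.03 for Orc5, 1.09 for Orc3 and 0.74 for Orc1, and it was -0.79 for Orc4, the only negative value. The remaining values were 1.55 for Dnmt1, 1.52 for Brca2, 0.89 for Uhrf1, 0.82 for Lig1 and 0.81 for Rpa1. The call of Orc1 held in 8 of 30 alternatives and was lost when any 1 of 11 arrays was left out. The DPI + DNFB arrays, which enter every one of these values, had the highest mean beta-actin ratio of the groups. The part of this ratio in the values was not tested beyond the covariate fit. That fit cannot separate the ratio from the treatment. In it 23 members passed, and of all genes 1386 passed as positive and 1188 as negative.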

How the results depend on the processing

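The number of members that passed, as reported, was 38 for DNFB, 40 for H2O2, 24 for DPI, 10 for both compounds, 2 for DNFB against H2O2, 17 for DPI + DNFB against DPI, 41 for DPI + DNFB against DNFB and 32 for the interaction. Leaving out 1 array at a time gave 31 to 38 for DNFB, 30 to 40 for H2O2, 15 to 26 for DPI, 6 to 11 for both compounds, 1 to 3 for DNFB against H2O2, 8 to 17 for DPI + DNFB against DPI, 36 to 42 for DPI + DNFB against DNFB and 28 to 32 for the interaction. The values as deposited, with their unequal scaling, moved all counts, to 5 for DNFB, 1 for H2O2, 0 for DPI, 0 for both compounds, 0 for DNFB against H2O2, 0 for DPI + DNFB against DPI, 15 for DPI + DNFB against DNFB and 2 for the interaction. Among arrays scaled to 500 the counts that moved by over 1.5 times were 24 for DNFB, 11 for DPI, 4 for both compounds, 0 for DNFB against H2O2, 9 for DPI + DNFB against DPI and 19 for the interaction, and among arrays scaled to 250 they were 26 for H2O2, 6 for DPI, 6 for both compounds, 1 for DNFB against H2O2 and 3 for DPI + DNFB against DPI. The first of these fits has 1 DNFB array and 4 residual degrees of freedom, and the second has 2 DNFB arrays, 1 array of each other group and 1 residual degree of freedom, so a lone array is assumed to vary like the other groups. The beta-actin covariate gave 0 for both compounds and 0 for DPI + DNFB against DPI, and DPI + DNFB replicate 2 on its own for that group, an alternative chosen after seeing the data, gave 1 for both compounds and 2 for DPI + DNFB against DPI. For DNFB against H2O2 the count was 1 without the filter, with the mean of the probe sets and with only the groups compared. The cause of these changes was not tested. With the replicate number as a block (replicate block) the counts were 39 for DNFB, 40 for H2O2, 27 for DPI, 11 for both compounds, 2 for DNFB against H2O2, 19 for DPI + DNFB against DPI, 42 for DPI + DNFB against DNFB and 32 for the interaction. Arrays with the same number deviated together weakly, with r from 0.004 to 0.126 over 30 pairs of which 6 were over 0.1. Over 60 pairs with different numbers the median r was -0.033, and 15 of 15 arrays correlated best with their own number. Arrays of a number may thus share a batch. The fit reported does not use the number, and the counts with it as a block are those just given. Members that passed kept their sign under every alternative run for DNFB (38 of 38), H2O2 (40 of 40), DPI (24 of 24), both compounds (10 of 10), DNFB against H2O2 (2 of 2) and DPI + DNFB against DNFB (41 of 41), and 14 of 17 and 31 of 32 did so for DPI + DNFB against DPI and for the interaction. Among 111 pairs of a named gene and a comparison, the sign turned in 64 of 3317 values, 3 of them in pairs that had passed (Orc4 and Rfc3 for DPI + DNFB against DPI, Orc4 for the interaction), and the rest had not passed. With the mean of the probe sets the turned values were, for DNFB 0.038 (Cdc45), for DPI -0.28 (Tyms), for both compounds -0.51 (Rrm2), -0.90 (Tyms) and 0.0033 (Uhrf1), for DNFB against H2O2 -0.20 (Tyms) and 0.023 (Uhrf1), for DPI + DNFB against DPI -0.62 (Tyms), for DPI + DNFB against DNFB -0.078 (Cdc45) and -0.33 (Tyms), for the interaction 0.055 (Orc4) and -0.051 (Tyms). Among arrays scaled to 500 the turned values were, for DNFB 0.26 (Tyms), for both compounds 0.039 (Cdc45) and 0.024 (Pole2), for DNFB against H2O2 -0.061 (Cdc45), for DPI + DNFB against DPI -0.025 (Tyms), for DPI + DNFB against DNFB 0.083 (Pcna), for the interaction -0.29 (Tyms). Among arrays scaled to 250 the turned values were, for H2O2 0.0057 (Pcna), for both compounds 0.086 (Uhrf1), for DNFB against H2O2 0.15 (Cdc6) and 0.17 (Pole2), for DPI + DNFB against DPI -0.42 (Cdc45) and -0.18 (Pole2), for DPI + DNFB against DNFB -0.070 (Cdc45). With the beta-actin covariate the turned values were, for both compounds 0.078 (Pcna), -0.26 (Rrm2) and 0.078 (Uhrf1), for DNFB against H2O2 -0.0021 (Tyms), for DPI + DNFB against DPI 0.046 (Orc4), 0.15 (Rfc3), -0.035 (Cdc45) and -0.34 (Tyms), for DPI + DNFB against DNFB 0.27 (Pcna), for the interaction -0.11 (Tyms). With DPI + DNFB replicate 2 alone the turned values were, for both compounds -0.042 (Rrm2), for DPI + DNFB against DPI -0.086 (Tyms), for DPI + DNFB against DNFB 0.25 (Pcna). With quantile normalization the turned values were, for both compounds 0.054 (Uhrf1), for DNFB against H2O2 0.053 (Pcna), for DPI + DNFB against DPI -0.10 (Cdc45) and -0.17 (Tyms), for the interaction -0.036 (Tyms). In the values as deposited the turned values were, for DNFB against H2O2 -0.058 (Mcm5), -0.19 (Cdc45) and -0.23 (Tyms), for DPI + DNFB against DNFB 0.27 (Pcna). With median centring the turned values were, for DNFB against H2O2 -0.047 (Tyms), for DPI + DNFB against DPI -0.14 (Cdc45) and -0.055 (Tyms). Leaving out 1 array at a time, the pairs whose sign turned ranged from -0.41 to 0.13 for Tyms with DNFB, -0.33 to 0.056 for Tyms with H2O2, -0.12 to 0.028 for Uhrf1 with both compounds, -0.24 to 0.29 for Tyms with DNFB against H2O2, -0.15 to 0.15 for Cdc45 with DPI + DNFB against DPI, -0.044 to 0.19 for Tyms with DPI + DNFB against DPI, -0.22 to 0.048 for Pcna with DPI + DNFB against DNFB and -0.029 to 0.50 for Tyms with the interaction.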
